A study of Mus musculus with 3 samples.

Results

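The enzymes that hydroxylate and crosslink collagen were followed through osteogenic culture of mouse bone marrow cells. They are the lysyl oxidases Lox, Loxl1, Loxl2, Loxl3 and Loxl4, the lysyl hydroxylases Plod1, Plod2 and Plod3, and the prolyl 4-hydroxylase alpha subunits P4ha1 and P4ha2. The 10 genes were chosen by name, and their probes were found on the array through the RefSeq accession that each probe carries. This gave 17 probes, out of 55664 probes in use, and 10 genes out of 20279 genes with a named probe. The 3 groups were mesenchymal stem cells (MSCs) at day 0, osteogenic cultures at day 3 and osteogenic cultures at day 21, with 1 array each. All were primary MSCs from bone marrow of male mice aged 8 weeks, grown in alpha-MEM with 10% serum. For the day 3 and day 21 cultures, ascorbic acid at 50 µg/mL and beta-glycerophosphate at 10 mM were added. The strain, the number of animals and whether the 3 cultures came from the same animals are not given in the labels. With 1 array per group, no difference had a replicate check and no test between days was possible.

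Collagen chains are modified in the endoplasmic reticulum before they fold. Prolyl 4-hydroxylase converts prolines to hydroxyprolines, which hold the triple helix together at body temperature, and lysyl hydroxylases convert lysines to hydroxylysines. Both kinds of enzyme need iron, 2-oxoglutarate and ascorbate, the vitamin that was added to these cultures. After secretion, the copper-dependent lysyl oxidases oxidise lysines and hydroxylysines in collagen and elastin, and the products join into covalent crosslinks. In bone the hydroxylation of telopeptide lysines decides which kind of crosslink forms, and crosslinked collagen is the scaffold that is mineralised.

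The promoters of both prolyl 4-hydroxylase alpha subunits are shown because both genes are known targets of hypoxia-inducible factor. On their brightest probes, P4ha2 relative to P4ha1 differed from day 0 by 1.99-fold at day 3 and 1.72-fold at day 21. Whether the promoters bear on that was not tested. The sequences are those of RefSeq, build GRCm38.p6. They run from 250 bases before to 50 bases after a start position, which for P4ha1 is not the listed gene start. The P4ha1 window is chr10:59323046-59323345 on the plus strand and the P4ha2 window is chr11:54100674-54100973 on the plus strand. Capitals mark ACGTG or GCGTG on either strand, the core of the hypoxia response element.
P4ha1: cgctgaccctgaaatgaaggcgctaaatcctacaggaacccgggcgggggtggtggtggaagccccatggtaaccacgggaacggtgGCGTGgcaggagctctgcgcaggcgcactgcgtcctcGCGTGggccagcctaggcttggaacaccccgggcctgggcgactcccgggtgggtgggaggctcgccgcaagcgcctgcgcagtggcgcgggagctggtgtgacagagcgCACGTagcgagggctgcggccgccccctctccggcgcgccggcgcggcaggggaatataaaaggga
P4ha2: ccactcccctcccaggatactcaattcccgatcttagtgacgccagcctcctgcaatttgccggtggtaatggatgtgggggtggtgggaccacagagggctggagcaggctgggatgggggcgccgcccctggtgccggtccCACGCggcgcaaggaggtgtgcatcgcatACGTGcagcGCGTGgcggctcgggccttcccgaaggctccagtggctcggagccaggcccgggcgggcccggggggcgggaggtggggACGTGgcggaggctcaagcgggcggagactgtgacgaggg
The P4ha1 window held 3 such cores. Counted with a window's start position as 0, the P4ha1 core nearest to it lay on the opposite strand at -16. The gene start listed for P4ha1, 59323197, lies upstream of that position within the window, so the cores stand elsewhere relative to it. The P4ha2 window held 4 cores, 1 of them past the start at position 10. Of the 10 genes, 5 had a promoter in the table (Plod1, Plod3, P4ha1, P4ha2 and Loxl4), with 1 to 4 cores each. Across all 32851 promoters of that length 43.8% held at least 1 core, so a match by itself is common, and a match is a description of these letters only.

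The values are processed signals of single spots, in arbitrary intensity units, with the error that Feature Extraction's own error model gave for the spot. For differences between days the signal was put on the log2 scale and each array's 75th percentile was subtracted. It came to 172.2, 174.6 and 190.7 on the day 0, day 3 and day 21 arrays. Probes spotted many times gave a technical SD of 0.16 for a log2 difference, and the error model gave an SD of 0.20 to 0.28 for the differences of the 17 probes. Both cover measurement on the array only, and precision is limited by there being 1 array per day. All 17 probes were well above background on all 3 arrays. A gene was represented by its brightest probe, and a difference of at least 2-fold was counted. The day 3 array was on a slide of its own, whereas day 0 and day 21 shared a slide and a scan, so that a difference between days and one between slides cannot be told apart in the comparisons with day 3. In whole cultures, fewer cells of a type and less RNA per cell cannot be told apart.

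Among the lysyl oxidases, Loxl2 was far lower after induction and the 4 others stayed within 2-fold of day 0. Loxl2 acts on collagen, including the type IV collagen of basement membranes. Its brightest probe had a signal of 20124 ± 2012 at day 0, 5740.4 ± 574 at day 3 and 2818 ± 282 at day 21 (error model). Loxl2 was thus highest at day 0 and lowest at day 21, a step down at each time, the later of which was under 2-fold with quantile normalization (-0.97) and with spike-in scaling (-0.84). The log2 difference was -1.83 for day 3 against day 0 (3.55-fold lower), -2.98 for day 21 against day 0 (7.91-fold lower) and -1.15 for day 21 against day 3 (2.23-fold lower). The other Loxl2 probes ran the same way. One had signals of 4221, 1130.3 and 579 at day 0, 3 and 21, and the other had 7884, 2118 and 1351. Their log2 differences were -1.92 and -1.92 for day 3 against day 0, and -3.01 and -2.69 for day 21 against day 0. Set against day 3, day 21 was at -1.09 and -0.78, so this later step was past 2-fold on 2 of the 3 Loxl2 probes.

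Lox, the founding member of the family and the main crosslinking enzyme of fibrillar collagen and elastin, was higher on both later arrays than at day 0 by less than 2-fold, except at day 3 under spike-in scaling. Its brightest probe had 4870.3 ± 487 at day 0, 6239.6 ± 624 at day 3 and 7069.5 ± 707 at day 21. The second Lox probe had 3029 at day 0, 4169 at day 3 and 5609.7 at day 21. Both Lox probes were thus in the same order over the days, and neither passed 2-fold. The log2 differences of Lox for day 21 against day 0 were 0.39 and 0.74 on the 2 probes. For day 3 against day 0 they were 0.34 and 0.44, but the direction at day 3 flipped under spike-in scaling, to -0.26 on the brightest probe.

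Loxl1, which is needed for elastic fibres, differed little between days. Its 2 probes had 7355 and 2306 at day 0, 6476 and 1916 at day 3, and 6373 and 1998 at day 21. The log2 difference for day 21 against day 0 was -0.35 on both. Loxl3, a relative with scavenger receptor domains as in Loxl2, had 1041 at day 0, 1064 at day 3 and 1499.6 at day 21 on its single probe, and a log2 difference of 0.38 for day 21 against day 0. Loxl4, another lysyl oxidase of the matrix, has 2 probes, which had 261 and 254 at day 0, 160.3 and 186 at day 3, and 232 and 164 at day 21. At day 3 both Loxl4 probes were lower than at day 0 (-0.72 and -0.46). From there they parted, with differences of 0.41 and -0.31 for day 21 against day 3, so the later course of Loxl4 depends on the probe.

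**Figure D1:**
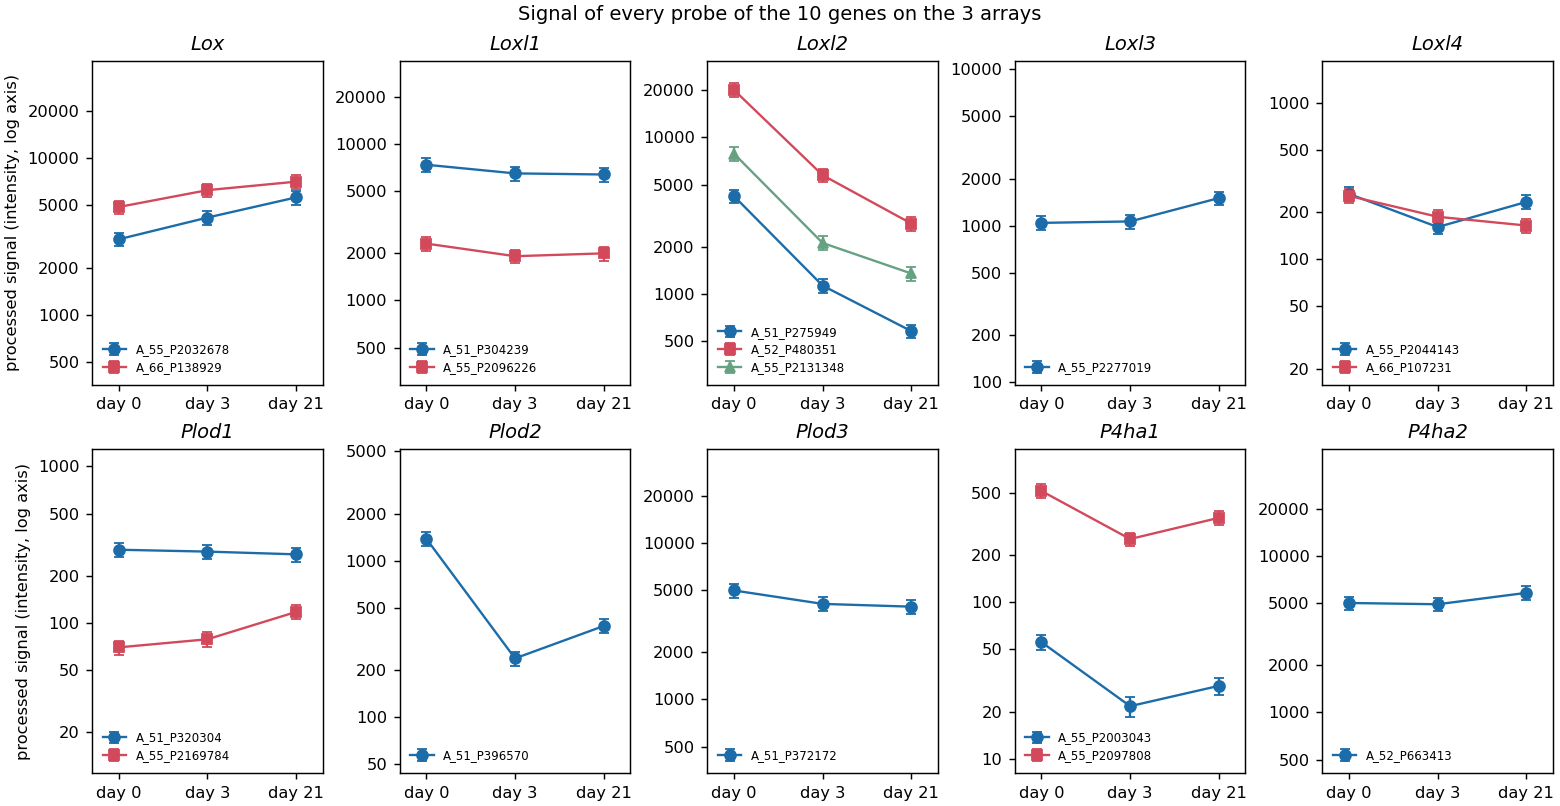
Processed signal (intensity, log axis with the same span in every panel) of each of the 17 probes on the day 0, day 3 and day 21 arrays. Points are single spots, bars are the error-model error and lines join the spots of one probe. Loxl2 is lower at each later day on 3 of 3 probes, Plod2 and both P4ha1 probes are lowest at day 3, and the 2 probes of Plod1 and of Loxl4 run differently.

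Among the lysyl hydroxylases, Plod2 was strongly lower after induction and Plod1 and Plod3 stayed within 2-fold. Plod2 encodes LH2, which hydroxylates lysines of the collagen telopeptides and so sets the kind of crosslink. Its single probe had 1383 ± 138 at day 0, 238 ± 24.0 at day 3 and 383 ± 38.4 at day 21. Plod2 was lowest at day 3 and lay between the other days at day 21. The log2 difference was -2.56 for day 3 against day 0 (5.89-fold lower) and -2.00 for day 21 against day 0. It was 0.56 when day 21 was set against day 3. Plod2 makes 2 known splice forms that differ in 1 exon, and which of them the probe detects was not analysed here.

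Plod1 encodes LH1, which hydroxylates lysines within the helix. Its brighter probe had 294 at day 0, 286 at day 3 and 275 at day 21, a log2 difference of -0.24 for day 21 against day 0. The dimmer Plod1 probe had 69.9, 78.8 and 118 at day 0, 3 and 21, a log2 difference of 0.61 for the same comparison. The 2 probes of Plod1 therefore disagree in direction, and the gene's own course is not settled by them. Plod3 encodes LH3, which also adds sugars to hydroxylysine. It had 4966 at day 0, 4075 at day 3 and 3912 at day 21, with log2 differences from day 0 of -0.30 at day 3 and -0.49 at day 21.

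The prolyl 4-hydroxylase alpha subunits, which carry the catalytic site, differed from each other. P4ha1 had 514 ± 51.5 at day 0, 253 ± 25.5 at day 3 and 346 ± 34.7 at day 21 on its brighter probe. Its dimmer probe had 55.6, 21.7 and 29.2 at day 0, 3 and 21. Both P4ha1 probes were lowest at day 3 and intermediate at day 21. The log2 differences for day 3 against day 0 were -1.04 (2.06-fold lower) and -1.38 (2.60-fold lower). For day 21 against day 0 they were -0.72 and -1.07, on either side of the 2-fold line. P4ha2 had 4998 ± 499.8 at day 0, 4905 ± 491 at day 3 and 5800.3 ± 580.03 at day 21 on its single probe, with log2 differences from day 0 of -0.05 at day 3 and 0.07 at day 21.

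Over the 10 genes, 3 were at least 2-fold lower at day 3 than at day 0 (Plod2, Loxl2 and P4ha1) and 0 were at least 2-fold higher. Among all 12455 genes measured in that comparison 7.85% were lower by that much and 7.73% higher, 15.6% in either direction. For day 21 against day 0, 2 of the 10 were at least 2-fold lower (Loxl2 and Plod2) and 0 higher, against 16.8% lower, 12.8% higher and 29.5% either way among 12387 genes, which for 2 of 10 genes is close to the background share. For day 21 against day 3, 1 was at least 2-fold lower (Loxl2, a call lost with quantile normalization and with spike-in scaling) and 0 higher, against 7.11% lower, 7.75% higher and 14.9% either way among 12739 genes. The median log2 difference of the 10 genes was -0.25, -0.34 and 0.08 in these comparisons, beside -0.08, -0.21 and -0.10 for all measured genes. The last 2 comparisons share an array with the first, so these counts are not independent of each other.

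The sizes of the 2 largest differences stood near the edge of the whole distribution. At day 3 against day 0, 0.59% of measured genes had a lower difference than Plod2 and 1.70% a lower one than the brightest Loxl2 probe. At day 21 against day 0, 1.49% had a lower difference than Loxl2 and 4.21% a lower one than Plod2. The remaining 7 genes without a 2-fold difference at day 3 ran from -0.72 (Loxl4) to 0.34 (Lox). At day 21 against day 0 the 8 others ran from -0.72 (P4ha1) to 0.39 (Lox).

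**Figure D2:**
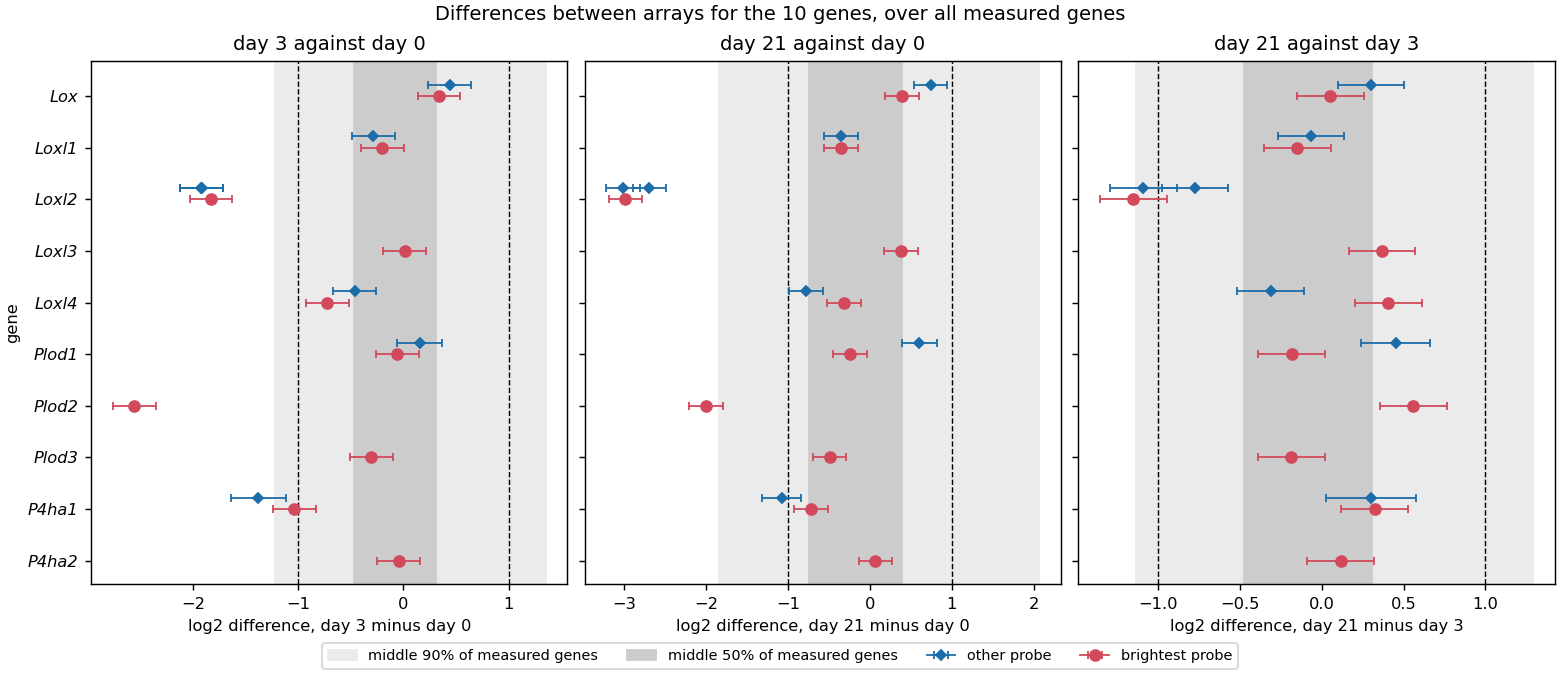
Log2 difference (x axis) of each gene (y axis) for day 3 minus day 0, day 21 minus day 0 and day 21 minus day 3. Red circles are the brightest probe, blue diamonds the other probes, bars the error-model SD, dashed lines 2-fold, and the grey bands hold the middle 50% and 90% of all measured genes. Plod2 (-2.56) and Loxl2 (-1.83) lie left of the wide band at day 3 and again at day 21 (-2.00 and -2.98).

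Differences between 2 genes in the same pair of arrays do not depend on the constant subtracted from each array. Quantile normalization, normexp background correction and the mean over probes are no such constant and can move them. For day 3 against day 0, normexp brought Plod2 from -2.56 to -2.21, with Plod3 at -0.30 and -0.31. It brought P4ha1 from -1.04 to -0.83, with P4ha2 at -0.05 and -0.09. Lox (0.34 in both) and Loxl2 (-1.83 and -1.79) moved little. Lox moved relative to Loxl2 by 2.17 on the log2 scale at day 3 against day 0 (4.49-fold) and by 3.37 at day 21 against day 0 (10.4-fold). Loxl3 relative to Loxl2 gave 3.36 at day 21 against day 0, and Loxl1 relative to Loxl2 gave 2.63. Within the lysyl hydroxylases, Plod3 relative to Plod2 gave 2.25 at day 3 against day 0 and 1.51 at day 21 against day 0. P4ha2 relative to P4ha1 gave 0.99 and 0.79. The array thus held more Lox signal per Loxl2 signal, and more Plod3 per Plod2, after induction than at day 0. These are changes of ratios of signal on different probes and say nothing of which enzyme had more RNA.

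Scaling on spiked-in control RNA moved all genes together. The spike-in probes were brighter than at day 0 by 0.61 on the log2 scale at day 3 and by 0.43 at day 21. Under spike-in scaling the median of all measured genes shifted by -0.59 for day 3 against day 0, by -0.28 for day 21 against day 0 and by 0.31 for day 21 against day 3. Plod2 was then at -3.15 and Loxl2 at -2.42 for day 3 against day 0, and Loxl4 passed 2-fold at -1.32. Over the 9 alternative ways of processing, Loxl2 ran from -3.27 to -2.65 and Plod2 from -2.28 to -1.70 for day 21 against day 0. P4ha1 ran from -1.63 to -0.83 for day 3 against day 0. It fell short of 2-fold with quantile normalization (1.99-fold lower), with the percentile of detected spots (1.97-fold lower) and with normexp background correction (1.77-fold lower).

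**Figure D3:**
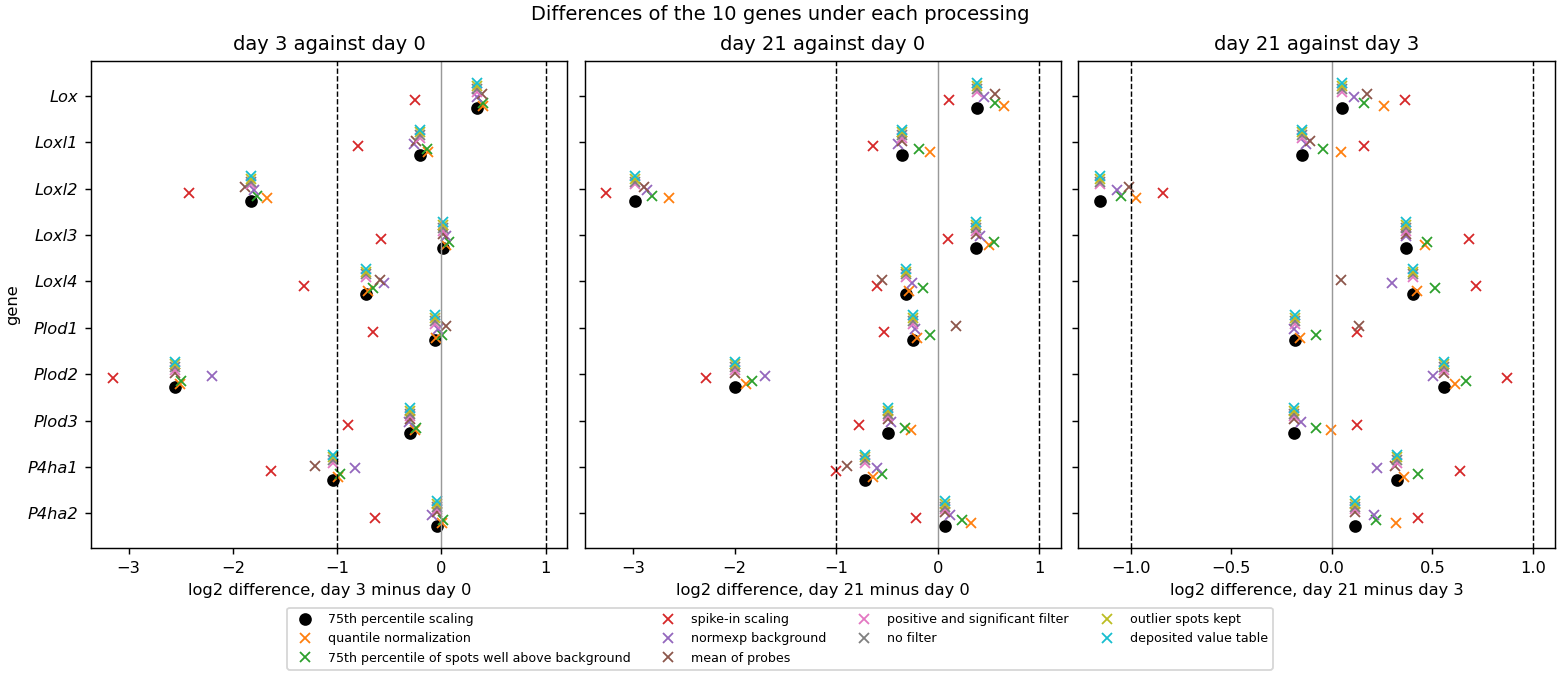
Log2 difference (x axis) of the brightest probe of each gene (y axis; the mean over probes in 1 setting) for the 3 comparisons. Black circles are the 75th percentile scaling, coloured crosses the 9 alternatives and dashed lines 2-fold. Loxl2 and Plod2 stay left of the 2-fold line in both comparisons with day 0, P4ha1 at day 3 lies on either side of it, and spike-in scaling moves every gene to the left in the comparisons with day 0.

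The partners of the hydroxylases and the procollagen chaperones were within 2-fold of day 0 at day 3, and 3 of 13 were at least 2-fold lower at day 21, against 16.8% of all measured genes. Of 13 measured genes in this group 0 passed 2-fold in either direction for day 3 against day 0 (median -0.17). At day 21 the median was -0.57 with 0 higher, and the 3 lower genes were P3h1, which hydroxylates proline at the 3 position (-1.53), Fkbp10, a prolyl isomerase that works with LH2 (-1.34), and Serpinh1, the collagen chaperone HSP47 (-1.29). P4hb, the beta subunit that holds the P4ha subunits in solution, had 8869.7 at day 0, 7273 at day 3 and 5359.6 at day 21 and was at -0.87 for day 21 against day 0. P3h4, a partner of LH1, lay just short of 2-fold lower. Crtap, which forms a complex with P3h1, was at 0.50, its other partner Ppib at -0.17, P3h3 at 0.85 and the third alpha subunit P4ha3 at -0.57. The sugar transferase Colgalt1 was at -0.67.

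The counts in the lists of procollagen processing, collagens, elastic fibres, cofactor supply, oxygenases, hypoxia targets and TGF-beta targets stand beside 7.73% higher and 7.85% lower among all genes for day 3 against day 0, and 12.8% higher and 16.8% lower for day 21 against day 0. Procollagen processing enzymes differed in both directions. Of 6 measured genes, 1 passed 2-fold upward and 1 downward at day 3 and again at day 21 against day 0. Adamts2, which removes the amino-terminal propeptide, had 1851 at day 0, 12213 at day 3 and 30075 at day 21, and was at 3.87 for day 21 against day 0. Tll1, a carboxy-terminal propeptidase, was at -1.17 for day 3 against day 0 (-0.50 on its second probe) and at -1.50 for day 21 against day 0. Bmp1, the main enzyme of that kind, was at -0.01 for day 21 against day 0 on its brightest probe (as low as -0.79 on another), and its enhancer Pcolce was at 0.92. Tll2 and Adamts3 stayed below the background mark on all 3 arrays.

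The substrates of these enzymes differed in both directions. Among 9 measured fibrillar collagen genes, 3 were more than 2-fold up and 1 down at day 3 against day 0 (median 0.06), and 2 up with 0 down at day 21 against day 0 (median 0.28). A further pair, dim at day 0, had bounds only, Col11a2 at least 5.13-fold higher at day 3 and 16.7-fold higher at day 21, and Col24a1, named after its values were seen, at least 2.41-fold and 1.99-fold higher. With both at their bounds the medians were 0.49 and 0.92. Col1a1 had 61666 at day 0, 65266 at day 3 and 49263 at day 21, and Col1a2 had 122348, 173921 and 164899. Col3a1 was at 1.69 for day 3 against day 0 and at 1.79 for day 21 against day 0, Col5a2 at -1.05 and -0.87, and Col5a1 at -0.34 and -0.94. Set against Col1a1, Loxl2 signal was lower by a further 2.51 on the log2 scale at day 21 against day 0 (5.71-fold), and Plod2 signal by 2.62 at day 3 against day 0 (6.15-fold). In the list of 11 genes of elastic fibres and matrix tethers, 6 passed 2-fold upward and 1 downward at day 21 against day 0 (median 1.13). Elastin, Eln, a substrate of Lox and Loxl1, had 276 at day 0, 562 at day 3 and 668 at day 21, a log2 difference of 1.13 for day 21 against day 0. Mfap4 was at 2.18 and Fbn2 at 1.86 for that comparison, and Fbln5, which brings Loxl1 to elastic fibres, at -1.30.

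Among the genes that supply the cofactors, 1 of 6 passed 2-fold upward and 1 downward at day 21 against day 0 (median 0.10), and 0 passed at day 3. Slc23a2, a sodium-dependent ascorbate transporter, had 36.9 at day 0, 48.9 at day 3 and 199 at day 21 (2.28 for day 21 against day 0). Its relative Slc23a1 stayed below the background mark throughout. Slc2a1, a glucose transporter that also carries oxidised ascorbate, was at -1.15, and the copper pump Atp7a, which loads the lysyl oxidases, at 0.57.

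Other oxygenases that use 2-oxoglutarate gave 1 of 9 at least 2-fold lower at day 3 against day 0 (Egln1, -1.25) and 2 of 9 lower at day 21 against day 0 (Egln3, -2.05, and Jmjd6, -1.61), with 0 higher in both. Known hypoxia targets outside the 10 genes had a median of -0.58 at day 3 against day 0, with 3 of 14 at least 2-fold lower and 2 higher. At day 21 against day 0 the median was -0.85, with 6 of 14 lower and 3 higher, and Car9, dim at day 21, at least 2.03-fold lower besides. Vegfa, the angiogenic growth factor, was at -2.63 on its brighter probe and -1.74 on the other at day 3 against day 0, and Ankrd37 was at -2.35, and the glycolytic enzyme Hk2 at -1.39, whereas Ndrg1 was at 1.63. Slc2a1 and Egln3 are counted in 2 of these lists each. The TGF-beta list holds matrix and feedback genes that TGF-beta is known to induce, together with ligands of that family. Like the other lists, it was drawn up with earlier results of these data known, which limits what its counts can show. Of its 11 genes 10 were at least 2-fold lower both at day 3 and at day 21 against day 0, with 0 higher (medians -2.10 and -2.24). Tgfb1, the other gene, was at -0.96 and -0.76. Inhba was at -2.71 and -3.51 in these comparisons, and Tgfbi at -2.41 and -3.61. Whether these lists and Plod2, Loxl2 and P4ha1 are linked was not tested.

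**Figure D4:**
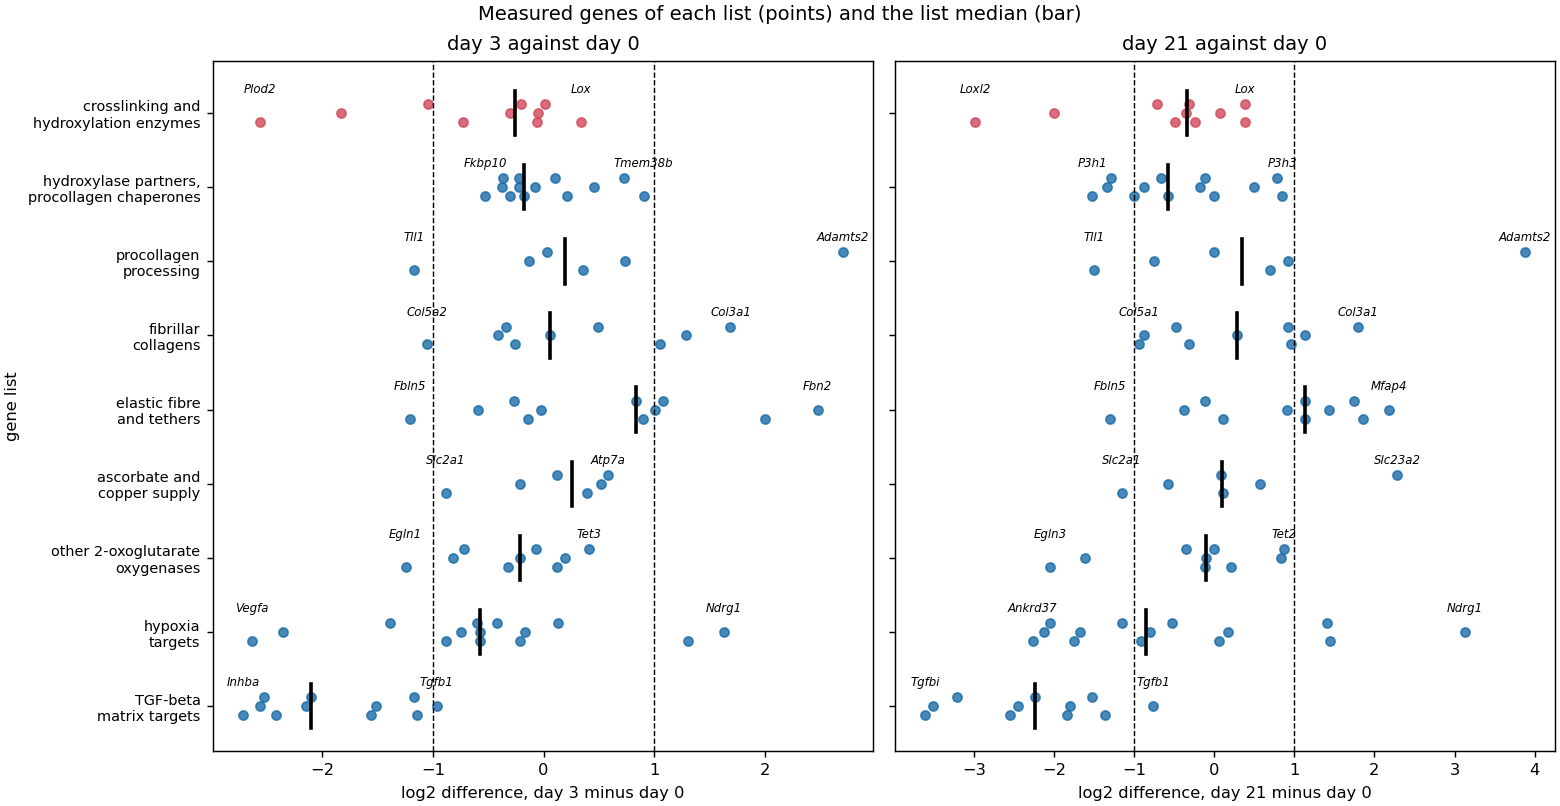
Log2 difference (x axis) of each measured gene (points) in 9 gene lists (y axis), for day 3 minus day 0 and day 21 minus day 0. Black bars are list medians, dashed lines 2-fold, red marks the 10 crosslinking and hydroxylation enzymes, and the lowest and highest gene of each list is named. The TGF-beta list has the lowest median (-2.10 and -2.24). The 9 measured fibrillar collagens lie on both sides of 0 (medians 0.06 and 0.28), and Col11a2 and Col24a1, dim at day 0, are not shown.

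Markers of the cell types that the cultures could hold also differed between days. Their counts above the background mark stand beside 63.8%, 64.7% and 66.2% of all named genes at day 0, 3 and 21. All 10 stromal markers were well above background on every array, with a summed signal of 72252, 126590 and 179281 at day 0, 3 and 21. At least 2-fold from day 0, 2 were higher and 1 lower at day 3, and 3 higher and 1 lower at day 21. Among all genes 7.73% were higher and 7.85% lower at day 3, and 12.8% and 16.8% at day 21. Pdgfrb, Thy1, Eng, Nt5e, Lepr and Vcam1 stayed within 2-fold of day 0 on their brightest probes. Pdgfra was 26.7-fold and Ly6a 12.6-fold higher at day 3 than at day 0, Cxcl12 was 4.95-fold higher at day 21 than at day 0, and Cd44 was 6.17-fold lower at day 21. Of 12 adipocyte markers, 7, 11 and 12 passed the background mark on the day 0, day 3 and day 21 arrays, with a summed signal of 1733, 8167 and 239992. Of 10 osteoblast markers 4, 6 and 8 passed it, with a summed signal of 760.7, 2629.5 and 6864, of which Spp1 gave 625, 2115 and 4613. At day 21 against day 0, 3 of 4 measured ones were at least 2-fold higher (Bglap2, Mepe and Spp1) and 0 lower. Among all genes 12.8% were higher and 16.8% lower. Runx2 was at -0.37. A further 4, dim at day 0, had bounds past 2-fold upward, the largest for Ibsp (63.7-fold) and Alpl (29.1-fold). The osteoblast transcription factor Sp7 and Sost stayed below the mark on each array. Chondrocyte markers passed it in 5, 9 and 9 of 9 cases, with a summed signal of 12378, 13147 and 66038. Single probes carried most of that sum, Col2a1 (also counted among the fibrillar collagens) with 11455 at day 0 and Comp with 48888 at day 21. At day 3 against day 0, Prg4 was at 3.59 and Comp at 2.52 on the log2 scale and Acan at -1.77. Col9a1 and Cnmd, dim at day 0, had lower bounds of 36.5-fold and 33.2-fold for being higher at day 3. Of 8 macrophage and blood markers with a probe 5 passed the mark on each array (summed signal 10737, 10018 and 16918, of which Itgam gave 9633, 8333 and 15404). Of these 5, 2 were at least 2-fold higher at day 21 than at day 0, Cd14 by 4.65-fold and Lyz2 by 2.93-fold. The pan-leukocyte gene Ptprc, the macrophage gene Adgre1 and Tyrobp passed the mark on no array. Endothelial markers passed it in 3, 4 and 4 of 7 cases (summed signal 3635, 4979.98 and 3252, of which Kdr gave 3588, 4902 and 3173), and Cdh5 and Tie1 on no array. The part of these cells in the differences of the 10 genes was not tested.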

How the data were processed

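RNA of 3 cultures was measured on 3 Agilent 1-colour mouse arrays. Spot intensity on a linear scale was deposited as scanner output. Feature Extraction 10.10.1.1 made it per the file headers, and 12.0 is the version in the submitters' processing notes. The processed signal, which the authors deposited unscaled between arrays, is background-subtracted; the error estimates and the quality flags (other columns, 0 or 1) also came from the deposited files. The deposited value table held the same intensity, with a largest relative difference of 0.

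Log2 of the signal minus each array's 75th percentile over 59305 non-control spots was used. Outlier spots were left out (200, 115 and 146 at day 0, 3 and 21), and 0 non-control spots were saturated. A probe counted as well above background with that flag on at least 50% of a probe's spots. The technical SD came from probes spotted at least 10 times. Probes were named through RefSeq accessions (GRCm38.p6 table, no gene position used): 26755 were named and 28909 were not, and further probes of the 10 genes may be among the latter. A bound sets the brighter value against the lowest detected one on the dim array.

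The 10 genes, the 8 pathway lists, the 6 marker lists and the rules were chosen with earlier results of these data known, and 2 listed genes are not reported here. All 10 genes are named, and 19 partner genes too. From the other lists a choice is named, mostly genes with large differences or never above background. The adipocyte list is given by its counts and summed signal only. The scaling and the 2-fold rule were tested on simulated signals with known changes. The arrays hold no mean spot signal, so normexp (limma 3.58.1, offset 50) used median signals. Python 3.11.15 and R 4.3.3 were used.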

Additional observations from a re-analysis of the deposited data

How the results depend on the processing

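The counts of genes at least 2-fold lower than at day 0 were 3 at day 3 and 2 at day 21. They stayed within 1.5 times under the 9 alternatives, with 0 higher throughout. At day 3 the count ran from 2 to 4. Some alternatives could not move any of the 10 genes, whose probes were all well above background without outlier spots. These were the looser background filter, no filter, outlier spots kept and the deposited value table. For day 21 against day 3 the count of 1 (Loxl2) became 0 with quantile normalization (-0.97) and 0 with spike-in scaling (-0.84). Spike-in scaling moved the day 3 list medians to -0.77 for hydroxylase partners and chaperones, -0.53 for fibrillar collagens and -2.69 for TGF-beta targets, with every gene shifted alike. The other 189 list medians stayed within the interval of the median over their genes. Of 291 single values of the 10 genes, those that could not move included, 73 moved by more than the technical SD. Spike-in scaling gave 30 of these, and 0 of the 2-fold differences changed sign. Smaller differences of Lox, Loxl1, Loxl3, Plod1, Plod3 and P4ha2 took the other sign in at least 1 setting, for example Loxl3 at day 3 against day 0 (0.01, and -0.58 with spike-in scaling). Other shifts of the all-gene median above 0.1 were 0.17 and 0.11 (percentile of detected spots, day 21 against day 0 and day 3), 0.11 (quantile, day 21 against day 0) and -0.10 (no filter, day 21 against day 3).

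Over all genes, 963 were higher and 978 lower at day 3 against day 0. These became 492 and 3519 with spike-in scaling, 582 and 550 with normexp, and 1904 and 1685 without a filter. At day 21 against day 0, 1582 and 2078 became 1232 and 3237 with spike-in scaling, 1874 and 1572 with the percentile of detected spots, and 2787 and 3019 without a filter. At day 21 against day 3, 987 and 906 became 1606 and 446 with spike-in scaling, 613 and 466 with normexp, 1157 and 691 with the percentile of detected spots, and 1792 and 1689 without a filter.

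No paired analysis was possible because each group holds 1 array, and for the same reason no replicate was left out and no slide block was fitted. The day 3 array's slide cannot be told apart from day 3.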
